A study of Mus musculus with 21 samples.

Results

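Long intergenic noncoding RNAs (lincRNAs) are transcribed from their own genes between protein-coding genes, are capped and often spliced, and are not known to be translated. The lincRNAs expressed in isolated mouse islets of Langerhans were described here in 3 groups of mice. Members were chosen by measured reads: genes of the type lincRNA in the GENCODE vM21 annotation whose reads on the annotated strand summed to at least 2100 over the 21 samples, leaving out the imprinted genes Meg3, Rian, Mirg and H19. This rule selected 128 of the 5854 lincRNA genes, out of 55536 genes of all types in the files. The sum of reads is therefore a description of the selection and not a finding. The members just over the limit were 1810044D09Rik with 2136 reads, 4933406P04Rik with 2164 and 4732496C06Rik with 2190, and the genes just under it were Snhg6 and Gm31518 with 2086 reads each and Gm6297 with 2008.

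LincRNAs act in the nucleus or the cytoplasm. Malat1 collects in nuclear speckles, where splicing factors gather, and Neat1 is the scaffold of paraspeckles. Others act near their own gene, hold microRNAs or small nucleolar RNAs (snoRNAs) in their introns and exons, or bind microRNAs or RNA-binding proteins. Many have no assigned function, and 110 of the 128 members carried provisional names made of a clone, a Gm number or a Rik name. The type lincRNA itself did not hold for every member: of the 91 members found in RefSeq by symbol or synonym, 80 were noncoding, 8 were protein-coding (among them Dbpht2 and Gm37494, both called below, and Tmem250-ps, 1810058I24Rik and D930016D06Rik), 2 were pseudogenes and 1 was a transcribed pseudogene. Gm42418, the member with most reads, was RefSeq's Rn18s-rs5, a gene related to 18S ribosomal RNA and classed there as a pseudogene. The rest, 37 members, were not matched.

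RNA had been sequenced from islets of male CBA mice on regular diet (RD), on high-fat diet (HFD) or on high-fat diet holding O304, an activator of AMP-activated protein kinase (HFD-O304), at 0.8 mg per g of diet. There were 7 samples per group, each of 150 islets pooled from 5 mice. Diets began at 10 weeks of age and lasted 9 or 10 weeks, both durations being stated, with islets taken at about 20 weeks of age. Read pairs on genes ranged from 13809266 (HFD-O304 replicate 2, the shallowest) to 48922569 per sample, and the stranded counts used were 28.8 to 36.3 times those of the other strand. By the distance of each sample to the mean of each group over the 11889 genes with at least 2100 reads, RD replicate 2 lay closest to the HFD samples and HFD replicate 7 closest to the RD samples, and each of the other 19 lay closest to its own group. HFD-O304 replicate 1 was labelled HFD in its diet entry and was placed by its title, and its profile lay closest to HFD-O304. Since whole islets were sequenced, fewer cells of a type and less RNA per cell cannot be told apart.

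Sequences that the results below turn on are given first, in lower case, 5′ to 3′, with the part that matters in capitals. Snhg18 passed the threshold in all 3 comparisons and carries within its gene a box C/D snoRNA, a class that guides methylation of other RNAs. The first sequence is the start region of Snhg18 from RefSeq (GRCm38.p6, minus strand, chr15:32244613-32244912), with the 50 transcribed bases in capitals. It held 31 CpG dinucleotides and 75.3% G and C. The next pair are those of Gm31373 (plus strand, chr1:190992421-190992720, 9 CpG, its start 21 bases from the GENCODE start) and Gm17767 (minus strand, chr1:51596669-51596968, 2 CpG), which were lower with O304 than on either diet alone.
Snhg18: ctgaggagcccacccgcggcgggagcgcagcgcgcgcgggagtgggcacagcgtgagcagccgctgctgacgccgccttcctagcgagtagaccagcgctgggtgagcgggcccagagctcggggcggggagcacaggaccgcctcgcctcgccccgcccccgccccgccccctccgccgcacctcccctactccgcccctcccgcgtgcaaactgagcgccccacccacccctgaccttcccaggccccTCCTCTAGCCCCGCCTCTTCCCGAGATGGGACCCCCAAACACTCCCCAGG
Gm31373: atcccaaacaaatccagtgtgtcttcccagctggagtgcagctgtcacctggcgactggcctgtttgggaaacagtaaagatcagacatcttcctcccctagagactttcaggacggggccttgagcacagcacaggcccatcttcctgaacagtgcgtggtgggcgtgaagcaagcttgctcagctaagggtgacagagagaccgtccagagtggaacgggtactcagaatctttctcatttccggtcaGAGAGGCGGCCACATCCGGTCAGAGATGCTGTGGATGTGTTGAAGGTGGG
Gm17767: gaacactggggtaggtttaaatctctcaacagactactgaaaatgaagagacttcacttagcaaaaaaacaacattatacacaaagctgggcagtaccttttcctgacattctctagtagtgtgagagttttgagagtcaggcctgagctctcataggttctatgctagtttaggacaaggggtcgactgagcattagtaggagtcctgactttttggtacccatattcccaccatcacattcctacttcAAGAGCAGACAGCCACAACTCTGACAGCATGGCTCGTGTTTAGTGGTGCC

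No start region of the 3 held CACGTG (the E box), TGACGTCA (the cyclic AMP response element), TTATGTAA, TGATGCAA, CCAAT or TATAAA on either strand. RefSeq gave start regions of 300 bases for 74 of the members. Of these regions, 23.5% held TATAAA against 13.6% of all 32851 start regions, 27.0% held CCAAT against 37.4%, 10.4% held CACGTG against 7.15%, 3.48% held TGACGTCA against 1.79%, 0.87% held TGATGCAA against 0.895%, and none held TTATGTAA against 0.938%. The median number of CpG was 11 in the members' start regions, 7 in the 20 regions of 14 called members and 7 in all 32851. No test was made of these shares, and a match is letters in a window and not a bound site.

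Snord123 lies in the Snhg18 gene (chr15:32241853-32241923, minus strand, 71 bases), and the capitals mark its C box and D box, the short elements that bind the methylation complex.
Snord123: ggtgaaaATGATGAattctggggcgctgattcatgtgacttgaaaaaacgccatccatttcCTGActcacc
MicroRNAs lay within 7 members on the same strand. Of these, 3 passed the threshold between HFD-O304 and HFD, as did 21.1% of all genes with at least 2100 reads. The mature microRNAs found for those 3 are printed with the seed, bases 2 to 8, in capitals, since the seed sets which messenger RNAs are bound. For Mir1839 and Mir421 only a 5p form was found, so the list may be incomplete. Mir670hg holds Mir129-2 and Mir670, 2900076A07Rik holds Mir1839, and Ftx holds Mir421 and Mir374b.
miR-129-5p: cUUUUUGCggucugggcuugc
miR-129-2-3p: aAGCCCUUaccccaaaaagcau
miR-670-5p: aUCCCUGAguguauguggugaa
miR-670-3p: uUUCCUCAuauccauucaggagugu
miR-1839-5p: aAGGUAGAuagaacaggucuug
miR-421-5p: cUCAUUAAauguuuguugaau
miR-374b-5p: aUAUAAUAcaaccugcuaagug
miR-374b-3p: gGUUGUAUuaucauuguccgag
These 8 mature sequences have 8 different seeds. miR-129-5p is also made from Mir129-1 within another member, Gm3294, so this mature sequence has 2 hosts among the members. A230057D06Rik spans the Mir344 family, in which 4 of the mature 5p forms share the seed GUCAGGC. Mature microRNAs and snoRNAs were not measured in these libraries.

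1700020I14Rik is the mouse Cyrano RNA (Oip5os1), known for a site that pairs almost fully with miR-7, a microRNA abundant in endocrine islet cells. The site was found in its transcript at bases 2935 to 2958, with the match to the seed in capitals.
1700020I14Rik: acaacaaaatcaccaatGTCTTCC
miR-7a-5p: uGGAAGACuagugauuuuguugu
Beyond the seed, 14 of the 15 remaining bases of miR-7a-5p paired at this site. The seed match GTCTTCC occurred 34 times in 28 members, and the best other site, in Gm37494, paired 9 of the 15. 2900097C17Rik is Norad, known for repeated sites for the Pumilio proteins, which shorten the life of messenger RNAs. Its transcript of 4915 bases held the Pumilio element TGTANATA 11 times, the most among the 128 members. Gm7292 followed with 9, and 89 members held none. Norad and Gm7292 also held an identical stretch at a miR-7 seed match, at bases 556 to 577 and 538 to 559. Whether these genes share reads was not tested.

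Levels between genes were compared as reads per kb of exon and per 1000000 reads on genes. The median over the 128 members was 3.13, against 5.55 over the 11241 protein-coding genes with the same minimum of reads. Gm42418 stood alone at 2881 ± 325 in RD (SD, n = 7 in each group), at 2573 ± 477 on the HFD and at 2683 ± 496 with O304. Its reads made up 0.528%, 0.471% and 0.491% of reads on genes, while the other 127 members together made up 0.187%, 0.168% and 0.18%. Malat1 followed at 62.6 ± 26.8 in RD, then Bc1 at 41.3 ± 16.7, a short neuronal RNA, and Gm27033 at 33.0 ± 3.92, which begins 4872 bases after the end of Pdx1, the gene of a transcription factor that beta cells need. Gm42418 and Malat1 did not overlap in the RD samples, and neither did Gm27033 and the next, Tmem250-ps at 23.3 ± 1.6. From Tmem250-ps through Gm15706, 2900097C17Rik, Gm30648, AC102496.1, Fam120aos, Snhg18 and Gm10076 the RD ranges of neighbours in the order overlapped.

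**Figure D1:**
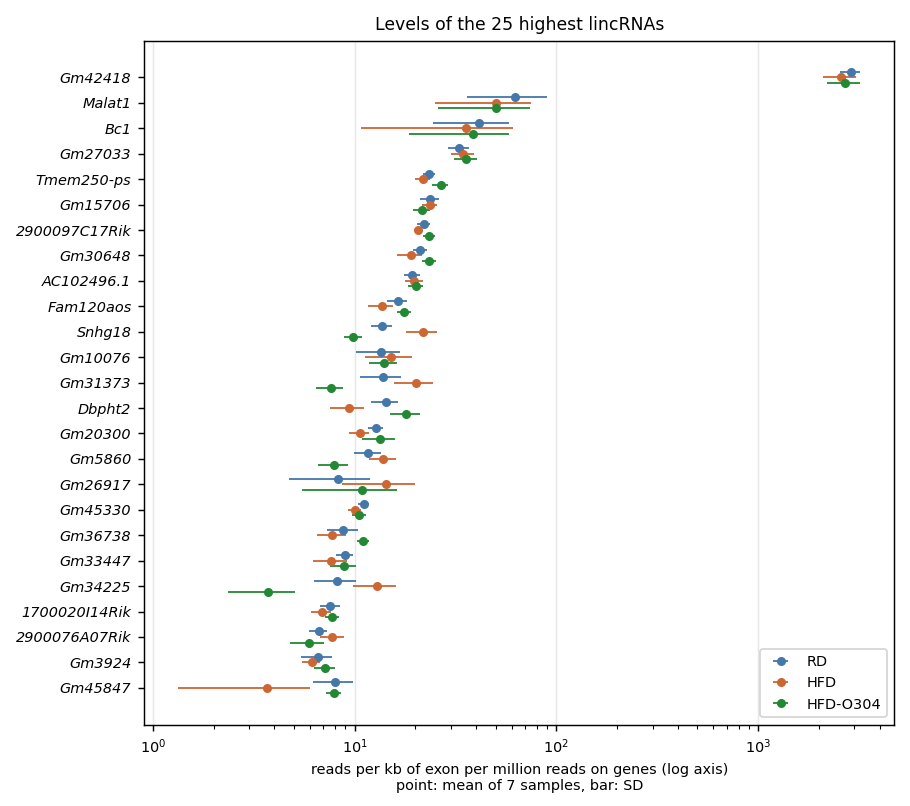
Reads per kb of exon, scaled to library size (log axis), of the 25 members with the highest levels, as the mean of 7 samples per group with the SD as a bar, RD in blue, HFD in orange and HFD-O304 in green. Gm42418 lies between means of 2573 and 2881 and Malat1, the next, at 62.6 or lower, and the bars of the 3 groups lie apart for Snhg18.

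The comparison of HFD with RD asks what the diet alone changed, that of HFD-O304 with HFD what O304 changed on the diet, and that of HFD-O304 with RD what remained different from regular diet. Values below are normalized reads (counts divided by DESeq2 size factors), fold changes are log2 values from edgeR's quasi-likelihood fit with their standard error (SE), and a gene was called at a Benjamini-Hochberg adjusted p under 0.01 over all 27229 genes tested. All 128 members entered the test. In HFD against RD, 7 members were called, 5.47% of them, against 3.54% of all genes (2% of all genes higher, 1.54% lower) and 6.14% of genes with the same minimum of reads. Of the 7, 3 were higher in HFD and 4 lower. In HFD-O304 against HFD, 24 members were called, 18.8%, against 11.9% of all genes (5.08% higher, 6.79% lower) and 21.1% of genes with the same minimum of reads, 14 of them higher and 10 lower with O304. In HFD-O304 against RD, 6 members were called, 4.69%, against 1.31% of all genes (0.404% higher, 0.903% lower) and 2.62% of genes with the same minimum of reads. All 6 were lower, and none were higher by edgeR or DESeq2, with 4 higher at an unadjusted p under 0.05. The share of members called was close to that of other genes with as many reads in the first and second comparisons.

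The median log2 fold change over the members was -0.11 in HFD against RD, 0.03 in HFD-O304 against HFD and -0.07 in HFD-O304 against RD, while over all genes with the same minimum of reads each was 0.01. In HFD against RD, 84 of the 128 members had a negative value. The 24 members called in HFD-O304 against HFD included every member called in the other comparisons, which share the HFD and HFD-O304 samples with it: 7 were also called in HFD against RD, 6 in HFD-O304 against RD and 1, Snhg18, in all 3.

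A first set was higher in HFD than in RD and lowest with O304. Snhg18, the host of Snord123, had between 617 and 910 normalized reads in RD (median 745), between 820.5 and 1551 in HFD (median 1174) and between 448 and 642 in HFD-O304 (median 494). No HFD-O304 sample reached the lowest HFD sample, which was replicate 7, while RD overlapped both groups. The log2 fold change was 0.73 ± 0.11 (SE) in HFD against RD (adjusted p = 0.00017), -1.25 ± 0.11 in HFD-O304 against HFD (adjusted p = 9.39e-09) and -0.53 ± 0.11 in HFD-O304 against RD (adjusted p = 0.00671). The last of these was lost in 11 of the 21 fits that leave out a sample, where the adjusted p reached 0.0261.

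Gm41177 (chr14:65172355-65185432) and Gm34574 (chr10:99216442-99228906), of no known role, were the other members called higher in HFD. Gm41177 ranged from 87.1 to 123 in RD, from 114.1 to 194 in HFD and from 56.1 to 96.7 in HFD-O304, so that the HFD samples lay above every HFD-O304 sample. Its log2 fold change was 0.55 ± 0.13 in HFD against RD (adjusted p = 0.00752), a call that 11 of 21 fits without a sample lost, and -0.94 ± 0.13 in HFD-O304 against HFD (adjusted p = 6.38e-06). Gm34574 ranged from 269 to 378 in RD, from 366 to 520.3 in HFD and from 207 to 397 in HFD-O304, with some overlap of HFD with both, and its values were 0.54 ± 0.11 (adjusted p = 0.002) and -0.68 ± 0.11 (adjusted p = 3.73e-05).

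The largest differences were those of Gm34225 (chr7:115031937-115066824). It had 175 to 318 normalized reads in RD (median 213), 225 to 528 in HFD (median 365) and 64.1 to 184 in HFD-O304 (median 94.3). Every HFD-O304 sample lay below every HFD sample, and only HFD-O304 replicate 3 reached the RD range. The log2 fold change was -1.9 ± 0.2 in HFD-O304 against HFD (adjusted p = 1.15e-07) and -1.19 ± 0.2 in HFD-O304 against RD (adjusted p = 0.000562). In HFD against RD it was 0.71 ± 0.19, which did not pass with edgeR (adjusted p = 0.0174) and passed with DESeq2 (adjusted p = 0.00319). It also passed in edgeR without RD replicate 2 and HFD replicate 7 (0.90, adjusted p = 0.00132). Those samples had been picked for lying closest to the other group, so leaving them out favours a larger difference. Gm31373 on chromosome 1 showed the same order, with 209 to 499 reads in RD, 386 to 812 in HFD and 167 to 235 in HFD-O304. Its values were -1.49 ± 0.15 against HFD (adjusted p = 6.35e-08) and -0.91 ± 0.15 against RD (adjusted p = 0.00053), and 0.59 ± 0.15 in HFD against RD (adjusted p = 0.011), where DESeq2 called it (adjusted p = 0.00175), as did edgeR without those samples (0.71, adjusted p = 0.00202).

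Gm49636, Gm5860 and Gm17767 were also lower with O304 than in either of the other groups. Gm49636 (chr16:29750810-29754312) was the most even of them within groups, with 373 to 500.2 reads in RD, 420 to 650.2 in HFD and 238 to 278 in HFD-O304. All HFD-O304 samples lay below all samples of both other groups, and the log2 fold changes were -1.12 ± 0.086 against HFD (adjusted p = 7.8e-10) and -0.81 ± 0.086 against RD (adjusted p = 1.26e-06). Gm5860, the highest of these per kb at 11.7 ± 1.78 in RD, ranged from 958 to 1334 normalized reads in RD, from 1154 to 1781 in HFD and from 547 to 993 in HFD-O304, with values of -0.91 ± 0.11 and -0.61 ± 0.11 (adjusted p = 7.59e-07 and 0.00104). Gm17767 ranged from 589 to 1047 in RD, from 748 to 1000 in HFD and from 427 to 656 in HFD-O304, and its value against RD, -0.51 ± 0.11, lay at the threshold (adjusted p = 0.00997) and was lost in 15 of 21 fits without a sample.

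**Figure D2:**
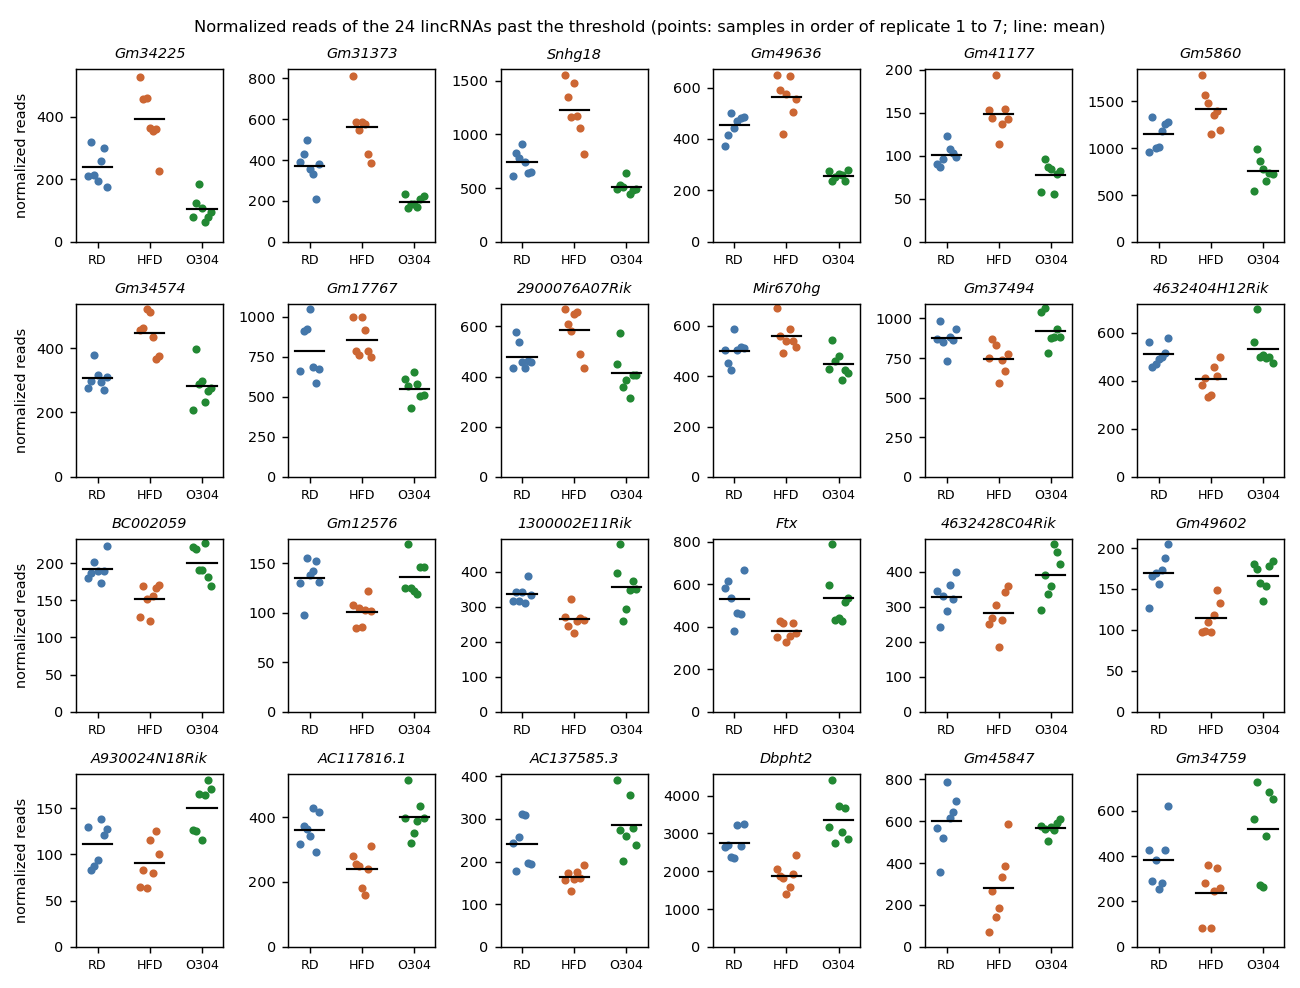
Normalized reads (vertical axis, from 0) of the 24 members called in any comparison, as a point for each of the 7 samples in RD, HFD and HFD-O304 (O304) with the mean as a line, ordered from the most lowered to the most raised in HFD-O304 against HFD. In Gm49636 all HFD-O304 points lie below all others, and in Gm45847 the HFD points spread from 69.4 to 586.

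A second set was lower in HFD and near or above the RD level with O304. Dbpht2, annotated as protein-coding in RefSeq, was the most abundant of them. It had 2360 to 3245 normalized reads in RD (median 2677), 1395 to 2441 in HFD (median 1882) and 2746 to 4418 in HFD-O304 (median 3160). No HFD sample reached the lowest HFD-O304 sample, and the log2 fold change was -0.56 ± 0.11 in HFD against RD (adjusted p = 0.00158) and 0.85 ± 0.11 in HFD-O304 against HFD (adjusted p = 2.06e-06). AC117816.1 (chr19:31950084-31952361) ranged from 292 to 428 in RD, from 160 to 311 in HFD and from 321 to 515 in HFD-O304, with values of -0.60 ± 0.12 and 0.74 ± 0.12 (adjusted p = 0.00247 and 6.61e-05). Gm49602 (chr12:118231595-118234564) ranged from 127 to 205 in RD, from 97.1 to 149 in HFD and from 136 to 184 in HFD-O304, with values of -0.56 ± 0.12 and 0.54 ± 0.12 (adjusted p = 0.00261 and 0.00119).

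Gm45847 (chr7:123031415-123068305), of no known role, had the largest drop in HFD and the widest spread there. It ranged from 359 to 789 in RD (median 617), from 69.4 to 586 in HFD (median 265) and from 504 to 612 in HFD-O304 (median 573). The highest HFD sample was replicate 7 and the lowest RD sample was replicate 2, the same samples whose whole profiles lay closest to another group. The log2 fold change was -1.08 ± 0.25 in HFD against RD (adjusted p = 0.00768) and 1.01 ± 0.25 in HFD-O304 against HFD (adjusted p = 0.00519), calls that 13 and 5 of 21 fits without a sample lost. The gene overlaps Gm45846 on the same strand, and reads that fall on both may be missing from its count. Within replicates 1 to 4 the values were -1.74 and 1.71 (adjusted p = 0.000812 and 0.000287), and within replicates 5 to 7 they were -0.58 and 0.43 (adjusted p = 0.0305 and 0.071). Without both of the samples close to another group they were -1.46 and 1.3 (adjusted p = 6.91e-05 and 5.76e-05). Leaving out samples picked for lying close to another group favours larger differences.

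The other members higher in HFD-O304 than in HFD passed by edgeR in that comparison alone. Gm34759 had the largest value, 1.12 ± 0.28 (adjusted p = 0.00511), with 82.1 to 359 reads in HFD and 262 to 729 in HFD-O304, and 5 of 21 fits without a sample lost it. AC137585.3 followed at 0.81 ± 0.14 (adjusted p = 0.000143) and A930024N18Rik, which overlaps the Notch ligand gene Dll1 on the other strand, at 0.74 ± 0.16 (adjusted p = 0.00122). In HFD against RD AC137585.3 stood at -0.56, which did not pass with edgeR (adjusted p = 0.0139) and passed with DESeq2 (adjusted p = 0.00278). Smaller differences were those of 4632428C04Rik (0.47), Ftx (0.47), 1300002E11Rik (0.43), Gm12576 (0.42), BC002059 (0.40), 4632404H12Rik (0.39) and Gm37494 (0.31). For 4632404H12Rik the value was 0.61 within replicates 1 to 4 (adjusted p = 0.00122) and 0.10 within replicates 5 to 7 (adjusted p = 0.572). Of these 7, Ftx and Gm37494 fell under the rule for named genes and the other 5 are named because they complete the 24. In HFD-O304 against RD the log2 values of these 10 members did not exceed 0.44 and none passed.

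**Figure D3:**
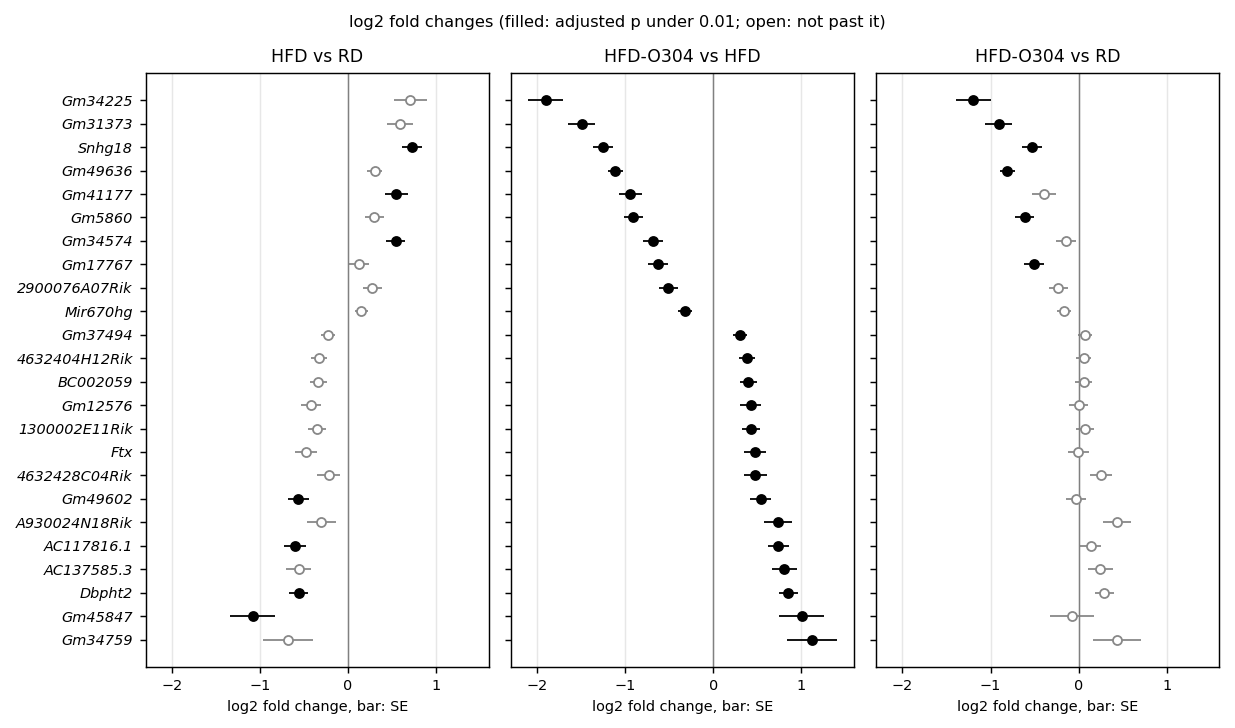
log2 fold changes (horizontal axis) with the SE as a bar for the 24 called members in each comparison, filled where the adjusted p was under 0.01 and open otherwise. Members raised in HFD lie at the top and turn negative in HFD-O304 against HFD, and in HFD-O304 against RD the filled points all lie below 0.

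Members with known roles were then read by group. The nuclear and RNA-binding group of Malat1, Neat1, Norad (2900097C17Rik) and Cyrano (1700020I14Rik) had no member called by edgeR or DESeq2 in any comparison, and none at an unadjusted p under 0.05. Norad was the steadiest, with 3503 to 4199 normalized reads in RD, 3630 to 4135 in HFD and 3738 to 4417 in HFD-O304, and log2 values of -0.05 ± 0.052 in HFD against RD and 0.08 ± 0.052 in HFD-O304 against HFD. Cyrano had 1895 to 2495, 1740 to 2331 and 2034 to 2568 reads, with values of -0.09 ± 0.067 and 0.07 ± 0.067. Malat1 and Neat1 were measured far less tightly, with an SE of 0.31 and 0.19, so that differences of that size could not have been called.

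Ftx and Jpx lie in the X inactivation centre, where they are known to promote expression of Xist, the RNA that silences an X chromosome in female cells. The mice were male, and Xist had 66 reads over all samples. Ftx ranged from 381 to 668 in RD, from 327 to 428.3 in HFD and from 428 to 789 in HFD-O304, with log2 values of -0.48 ± 0.12 in HFD against RD (adjusted p = 0.0145) and 0.47 ± 0.12 in HFD-O304 against HFD (adjusted p = 0.00671). Jpx ranged from 101.4 to 166, from 88.5 to 110.5 and from 98.8 to 167, with values of -0.51 ± 0.13 (adjusted p = 0.0116) and 0.31 ± 0.13 (adjusted p = 0.0965). Of the pair only Ftx was called by edgeR, in HFD-O304 against HFD, and 8 of 21 fits without a sample lost that call. DESeq2 called both lower in HFD than in RD. The genes overlap on opposite strands, which the stranded counts separate.

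Of the 11 hosts of small RNAs, Snhg18 was called in all 3 comparisons. Mir670hg, 2900076A07Rik and Ftx were called by edgeR in HFD-O304 against HFD only, the first pair lower and Ftx higher. In that comparison 21.1% of genes with the same minimum of reads were called. Mir670hg, from which miR-129-5p and miR-670 are cut, had 425 to 586 reads in RD, 491 to 671.5 in HFD and 386 to 543 in HFD-O304, and its log2 fold change was -0.32 ± 0.079 (adjusted p = 0.00461). That call was lost without HFD replicate 1, HFD replicate 5 or HFD-O304 replicate 5 (values from -0.3 to -0.27). 2900076A07Rik, host of Mir1839, had 434 to 576, 434 to 670.1 and 312 to 575 reads, with a value of -0.51 ± 0.11 (adjusted p = 0.00104). Gm3294, the second host of miR-129-5p, did not follow Mir670hg, with a value of -0.08 ± 0.16. The remaining hosts, A230057D06Rik, 5330434G04Rik, Snhg12, 2700038G22Rik, Snhg20 and D230017M19Rik, were not called by edgeR, and their log2 values in HFD-O304 against HFD lay between -0.37 for 5330434G04Rik and 0.53 for D230017M19Rik. For 5330434G04Rik, host of Mir325, the edgeR adjusted p in that comparison was 0.0195. DESeq2 called it lower there (-0.38, adjusted p = 0.00855), as did edgeR with the library set as a term (adjusted p = 0.000384).

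Genes of proteins that work with lincRNAs are given for comparison. Over all genes, 3.54% were called in HFD against RD, 1.31% in HFD-O304 against RD and 11.9% in HFD-O304 against HFD. Among genes with the same minimum of reads as the members these shares were 6.14%, 2.62% and 21.1%. Of 22 paraspeckle and nuclear speckle genes, only Hnrnph3, a splicing regulator, was called, higher in HFD-O304 than in HFD at 0.51 ± 0.084 (adjusted p = 6.15e-05). None of 29 measured genes of nuclear RNA decay and 3′ end formation was called by edgeR in any comparison, with 6, 3 and 6 at an unadjusted p under 0.05 and 1, 0 and 1 called by DESeq2 in HFD against RD, HFD-O304 against RD and HFD-O304 against HFD. Of 14 genes of chromatin complexes that bind lincRNAs, Uhrf1, which maintains DNA methylation at replication, was higher in HFD than in RD at 1.63 ± 0.28 and lower with O304 than in HFD at -2.25 ± 0.3 (adjusted p = 0.000575 and 3.01e-06). Ezh2 and Ezh1, alternative methyltransferases of Polycomb complex PRC2, had values of -0.64 ± 0.12 and 0.39 ± 0.063 in HFD-O304 against HFD (adjusted p = 0.000411 and 4.35e-05), and Ezh1 was called lower in HFD than in RD at -0.27 ± 0.062.

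Reads can run on past the end of a gene into a lincRNA annotated on the same strand, so same-strand neighbours were listed for every member. An upstream neighbour ended within 10 kb of 34 members and within 1 kb of 6, a downstream neighbour began within 10 kb of 24, and 13 overlapped a gene on the same strand. Among the 24 called members these numbers were 4, 2, 4 and 3. The 4 with an upstream neighbour within 10 kb were Gm49602, 369 bases after Sp4, a transcription factor gene, Dbpht2, 723 bases after 1700086L19Rik, AC117816.1, 1089 bases after A1cf, the gene of an RNA-editing cofactor, and Gm37494, protein-coding in RefSeq, 3982 bases after Zfp619. None of the 10 members called lower in HFD-O304 than in HFD had an upstream neighbour within 10 kb.

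Of these 4 neighbours, 3 passed the threshold in the direction of their lincRNA in both comparisons. A1cf had a log2 value of -0.61 ± 0.089 in HFD against RD and 0.63 ± 0.089 in HFD-O304 against HFD (adjusted p = 9.37e-05 and 8.97e-06), and 1700086L19Rik had -0.37 ± 0.085 and 0.70 ± 0.085 (adjusted p = 0.00624 and 1.04e-06). Sp4 had -0.46 ± 0.094 and 0.37 ± 0.094 (adjusted p = 0.00265 and 0.00539), and Zfp619 had -0.34 ± 0.12 and 0.40 ± 0.12, which did not pass (adjusted p = 0.0849 and 0.0167). Per kb, the lincRNA stood at 91% of A1cf, 29.8% of 1700086L19Rik, 36% of Sp4 and 151% of Zfp619. Whether these reads come from separate transcripts was not tested.

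The log2 ratio of a called member to its neighbour was compared between groups by an exact two-sided permutation test over samples (3432 splits), for 6 pairs and 3 comparisons, 18 tests. The lowest adjusted p was 0.0732. The smallest exact p the splits allow is 0.000583, or 0.0105 for a single ratio after adjustment, so that a lone ratio could not have reached the 0.01 used for genes. The ratio of AC117816.1 to A1cf was -0.92 in both RD and HFD, a difference of 0.0023 (exact p = 0.982). The ratio of Dbpht2 to 1700086L19Rik was 0.62 ± 0.088 (SD, n = 7) in RD and 0.43 ± 0.13 in HFD (exact permutation p = 0.00932, adjusted p = 0.0732). The same adjusted p was reached by the ratio of 4632404H12Rik to Chrnb2, a nicotinic receptor subunit gene that begins 2879 bases downstream and whose own values were -0.02 and 0.02, where the difference was -0.32 between HFD and RD and 0.39 between HFD-O304 and HFD (exact permutation p = 0.0122 and adjusted p = 0.0732 for each). Mir670hg and Hsd17b12, 2672 bases downstream, both had lower values with O304 than in HFD, at -0.32 and -0.40.

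Over all members whose upstream neighbour had at least 2100 reads, the log2 fold changes of lincRNA and neighbour in HFD-O304 against HFD had a correlation across genes of 0.69 (Spearman 0.55) for the 25 pairs within 10 kb and 0.04 (Spearman 0.06) for the 36 pairs farther apart. In HFD against RD these were 0.53 (0.60) and -0.06 (-0.08), and in HFD-O304 against RD 0.12 (0.10) and 0.25 (0.30). In HFD-O304 against HFD the signs agreed in 18 of the 25 near pairs and 22 of the 36 farther pairs. In HFD against RD they agreed in 15 and 17, and in HFD-O304 against RD in 14 and 24. The median absolute difference between lincRNA and neighbour was 0.169 and 0.179, 0.134 and 0.224, and 0.101 and 0.154 in the same order. The pairs share libraries, the comparisons share samples, and genes are not independent replicates, so no test is given. Gm27033 and Pdx1 were a near pair of high level in which neither passed the threshold, at -0.06 and -0.02 in HFD-O304 against HFD. 9030622O22Rik, 2674 bases after Foxa2, the gene of an endoderm transcription factor, had 0.30 beside 0.31 for Foxa2, and stood at 7.63% of its level per kb.

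**Figure D4:**
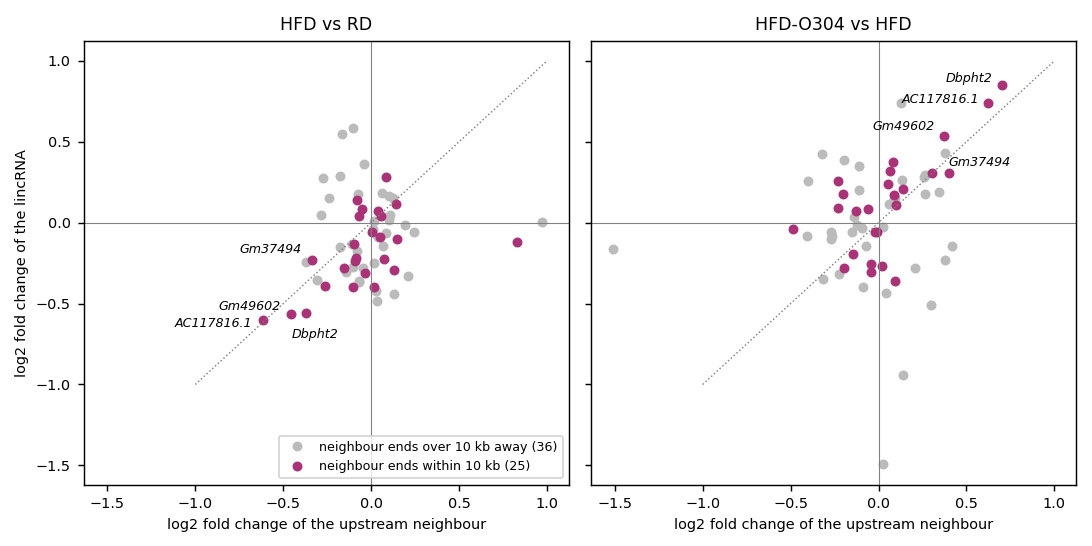
log2 fold change of the lincRNA (vertical axis) against that of its upstream same-strand neighbour (horizontal axis) in HFD against RD (left) and HFD-O304 against HFD (right), in purple for the 25 pairs within 10 kb and in grey for the 36 pairs farther apart, with the line of equal values dotted. The 4 named members lie along that line in both panels, low on the left and high on the right.

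Overlapping genes on the other strand were present for 28 members. Reads on the other strand exceeded 5% of the stranded total for 17 members, among them Ino80dos at 82.8%, Gm3924 at 63.2% and C030014I23Rik at 57.1%, and were under 1% for 87. Counting without strand left 14 members with under 80% of their stranded reads, Gm42418 with 0 since it overlaps the ribosomal RNA gene CT010467.1, and 3 of the 14 were called, 2900076A07Rik, A930024N18Rik and Gm41177. With unstranded counts in edgeR, Gm41177 did not pass in HFD against RD (0.46, adjusted p = 0.0788). Gm42418 and Gm26917, 617 bases apart on chromosome 17 beside that ribosomal gene, and Bc1, a repeat-related short RNA, may share reads with other copies and are uncertain.

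Malat1 varied more between samples of a group than between groups. It had 7986 to 25040 normalized reads in RD, 5439 to 21400 in HFD and 6152 to 22310 in HFD-O304, and its SD within groups was 0.72 on the log2 scale against a median of 0.22 over the members. Replicate 4 was lowest in RD and in HFD, and replicate 3 in HFD-O304. The deviations of the other 127 members from their group means were correlated with those of Malat1 over the 21 samples, with a permutation of samples within groups (100000 resamples) and adjustment over the 127 tests. Genes outside the members were not correlated with Malat1. Whether the counts below are particular to lincRNAs was therefore not tested. In 12 members the correlation was positive at an adjusted p under 0.01, and in none was it negative. It was highest for A230057D06Rik, the Mir344 host (r = 0.89, rho = 0.88, adjusted permutation p = 0.000635 for each), where the raw p of 1e-05 is the smallest these permutations can give. Next were D930016D06Rik (r = 0.88, rho = 0.84, adjusted permutation p = 0.000847 and 0.00102), Gm20342 (r = 0.87, rho = 0.96, adjusted permutation p = 0.000635 for each) and Gm37494 (r = 0.81, rho = 0.79, adjusted permutation p = 0.000952 and 0.00169).

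Without RD replicate 4 and HFD replicate 4, the samples farthest from the median of Malat1, r was 0.86, 0.88, 0.86 and 0.75 for these 4. Within replicates 1 to 4 it was 0.96, 0.90, 0.97 and 0.91, and within replicates 5 to 7 it was 0.95, 0.70, 0.87 and 0.38, so that for Gm37494 it was weaker in the second set. Ftx had 0.80 overall and Cyrano 0.72. Neat1, which lies 22036 bases from Malat1, had 0.61 (adjusted permutation p = 0.0428). In A230057D06Rik the highest sample of a group held 3.2 to 3.78 times the reads of the lowest, and in Gm20342 3.47 to 5.7 times. The source of this shared variation was not tested.

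**Figure D5:**
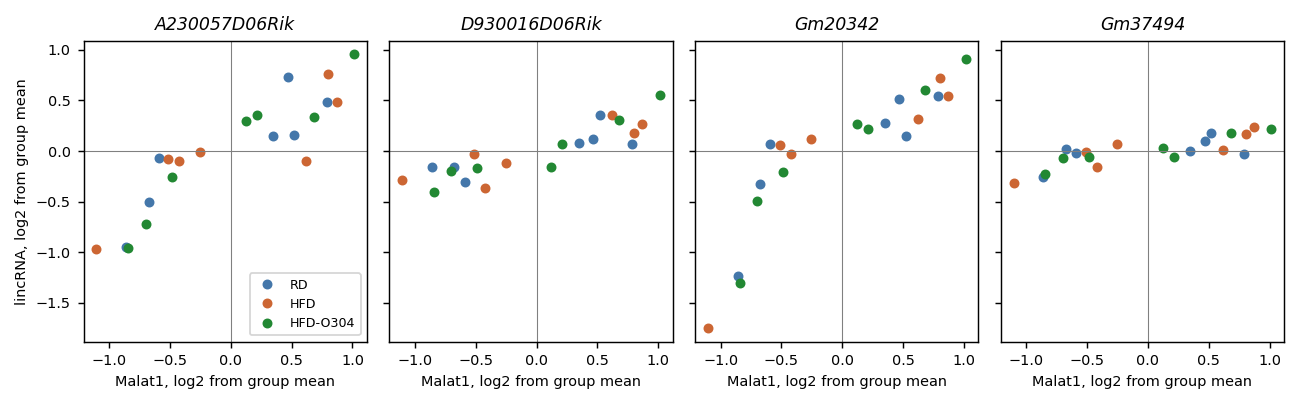
Deviation from the group mean of log2(normalized reads + 1) for A230057D06Rik, D930016D06Rik, Gm20342 and Gm37494 (vertical axes) against that of Malat1 (horizontal axes), a point per sample, RD in blue, HFD in orange and HFD-O304 in green. The points rise together in every panel, most narrowly in height for Gm37494, whose SD within groups was 0.16.

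Markers of other cells moved with the same contrasts. Over all genes, 2% were called higher and 1.54% lower in HFD against RD. In HFD-O304 against HFD these shares were 5.08% and 6.79%. All 5 genes of the proliferating list were called higher in HFD than in RD and lower in HFD-O304 than in HFD, with summed normalized reads of 546 to 868 in RD, 636 to 3625 in HFD and 288 to 647 in HFD-O304. Of 6 stellate and fibroblast markers, 1 was called higher in HFD than in RD and 4 lower in HFD-O304 than in HFD, with sums of 9021 to 12710, 10810 to 19290 and 6017 to 10430. The first set of lincRNAs had been grouped by this same direction. All 5 alpha cell markers were called higher in HFD-O304 than in HFD and 4 were called lower in HFD than in RD. Their sums were 785800 to 1005000 in RD, 290900 to 610500 in HFD and 821100 to 1107000 in HFD-O304. The second set of lincRNAs had been grouped by that direction. Both likenesses were therefore fixed by how the sets were drawn. All 3 delta cell markers were called higher in HFD-O304 than in HFD and 2 lower in HFD than in RD. Of 7 duct markers 4 were called higher and of 7 endothelial markers 2 lower in HFD-O304 than in HFD, of 8 macrophage markers 1 higher, of 7 beta cell markers 2 higher and 3 lower in that comparison (1 each way in HFD against RD), and of 7 immediate early genes 1 lower, while the PP marker was not called. No marker was at 0 in any group. The part of these cells in the results was not tested.

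Acinar markers, by contrast, differed between samples rather than groups, with sums of 4038 to 340500 in RD, 1137 to 261600 in HFD and 794 to 114800 in HFD-O304, and none of the 15 was called by edgeR or DESeq2 (1 at an unadjusted p under 0.05 in HFD-O304 against RD). With the acinar level as a term in the fit, 9, 24 and 6 members were called in HFD against RD, HFD-O304 against HFD and HFD-O304 against RD. The libraries of replicates 1 to 4 and those of replicates 5 to 7 have separate blocks of numbers, which no source used here explains, and fits within each set gave all 7, 24 and 6 called values the same sign in both. These values had been called on all 21 samples, of which each set is a part, so equal signs were likely beforehand. The sizes differed by over 1.5 times between the sets for 10 of these values, 7 of them larger in replicates 1 to 4. Beside Gm45847 and 4632404H12Rik, they were in HFD-O304 against RD those of Gm5860 (-0.46 in replicates 1 to 4 and -0.82 in replicates 5 to 7), Gm17767 (-0.66 and -0.29), Gm31373 (-1.11 and -0.61) and Gm34225 (-0.93 and -1.62). In HFD-O304 against HFD they were those of Mir670hg (-0.26 and -0.42), BC002059 (0.51 and 0.24) and Gm49602 (0.68 and 0.38). The interaction with these sets was not past the threshold for any member by edgeR, with 9, 3 and 10 members at an unadjusted p under 0.05 in HFD against RD, HFD-O304 against RD and HFD-O304 against HFD. No other tool was run for it. Of the 32 called values of named members, 30 passed without RD replicate 2 and HFD replicate 7, and Gm41177 in HFD against RD and Gm17767 in HFD-O304 against RD did not (0.53 and -0.46, adjusted p = 0.0111 and 0.0323). As these samples were picked for lying closest to the other group, that fit favours larger differences between RD and HFD.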

How the data were processed

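RNA from 21 islet samples was sequenced by the study as stranded 50-base paired-end libraries. The deposited values are raw counts of read pairs per gene, made by the authors with FastQC and STAR's gene counting on GRCm38, with no trimming step given in the sources used here. Of the 3 count columns, the reverse-strand column was used, the unstranded one as an alternative and the forward-strand one for strand checks. Gene types and positions were those of GENCODE vM21, and sequences those of RefSeq (GRCm38.p6) and of GENCODE transcripts. Samples were grouped by their labels, HFD-O304 replicate 1 by its title and HFD replicate 3 by its diet entry.

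Genes with a sum of at least 10 reads (27229) were fitted over all 3 groups with edgeR 4.0.16 in R 4.3.3 (TMM scaling, quasi-likelihood test, Benjamini-Hochberg adjustment over all genes, threshold 0.01), with SE as the log2 fold change over the square root of F. DESeq2 1.42.0 gave size factors and an alternative test. Malat1 deviations used log2 with a pseudocount of 1 and neighbour ratios 0.5. The model steps were tested on simulated data. Samples are pools of mice, and nothing states that pools were separate cohorts, so p-values measure the spread between pools. Counts are of reads without molecular identifiers.

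Members, gene lists and tests were chosen with earlier results of these data known. Named are the 12 members with most reads, in each comparison the 6 largest called increases and decreases, those called in several comparisons, members of the role lists and called members with a near upstream neighbour. A list of 23 neural and islet lincRNAs with known roles held 0 members. Alternatives were scaling, filtering, DESeq2, strand, the acinar level, library sets, a replicate block, 2-group fits, other limits and leaving out samples. Fits without RD replicate 2 and HFD replicate 7 together and the neighbour ratios were added after seeing the data. Those samples were picked for lying closest to the other group, which favours more calls in HFD against RD.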

Additional observations from a re-analysis of the deposited data

Results flagged for a closer look

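In each group of 7 samples, the gap of the highest or lowest sample to its nearest neighbour was set against the range of the group, for the 38 named members in each of the 3 groups. By Dixon's 95% critical value 4 samples stood apart, and chance gives about 1 in 20 groups. In 1700020I14Rik (Cyrano), HFD replicate 4 had 1740 normalized reads and the other HFD samples 2083 to 2331. In Gm20300, RD replicate 2 had 1903 and the others 1418 to 1598. In Snhg18, HFD-O304 replicate 4 had 641.6 and the others 447.6 to 527.7. In 5330434G04Rik, host of Mir325, HFD replicate 1 had 1038 and the others 612.8 to 777.7.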

How the results depend on the processing

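Counts of called members that moved by over 1.5 times were these. In HFD against RD, 7 became 18 with DESeq2, 19 at an adjusted p under 0.05, 11 with the library set as a term, 12 with a replicate block, 12 without RD replicate 2 and HFD replicate 7, 2 in replicates 1 to 4 and 2 in replicates 5 to 7. In HFD-O304 against HFD, 24 became 39 with DESeq2, 45 at 0.05 and 14 in replicates 5 to 7. In HFD-O304 against RD, 6 became 2 in replicates 1 to 4 and 3 in replicates 5 to 7. Leaving out a sample gave 5 to 14 (14 without HFD replicate 7), 16 to 26 (16 without HFD replicate 4) and 4 to 6. Called members with an upstream neighbour were 2 within 1 kb and 9 within 50 kb. In replicates 5 to 7 the library numbers of samples with the same replicate number followed each other across the groups. In replicates 1 to 4 the library numbers ran group by group instead. Whether replicates 5 to 7 alone deviated together was not tested. No label states that samples of the same replicate number belong together. The main fit did not take the replicate numbers as pairs. Samples of the same number deviated together in some pairs and not in others. In HFD-O304 against RD the mean correlation of their deviations was 0.301 over 7 pairs, with 6 over 0.1, the lowest -0.136 and an exact permutation p of 0.00516. In HFD against RD the mean was 0.2 (4 over 0.1, lowest -0.558, exact permutation p = 0.0538) and in HFD-O304 against HFD 0.137 (5 over 0.1, lowest -0.38, exact permutation p = 0.154), and 3, 2 and 2 samples correlated best with their own number in HFD against RD, HFD-O304 against RD and HFD-O304 against HFD. The replicate block gave 31 calls in HFD-O304 against HFD and 6 in HFD-O304 against RD. No called value of a named member changed direction. The cause of these shifts was not tested, beyond that fits within a set hold fewer samples. Members near the limit of 2100 reads have the least precision.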
